A study of Mus musculus with 12 samples.

Results

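The retinoic acid receptor genes Rara, Rarb and Rarg and the retinoid X receptor genes Rxra, Rxrb and Rxrg of the mouse were followed across polyadenylated RNA of cultured stem cells. They were chosen by name, as the complete set of RAR and RXR genes, with earlier results of these data known. All 6 were present among the 55401 genes in the files. The samples were 3 lines of TPS cells (totipotent potential stem cells) and 3 lines of EPS cells (extended pluripotent stem cells), each with 2 technical replicates according to the series' design text, so that there were 12 libraries. The labels place both kinds of cell on feeder cells, TPS cells in a medium called VCED and EPS cells in a medium called LCDM. The study's methods describe the TPS medium as the CPEC condition, which combines CD1530, an agonist of RARγ, with VPA, which inhibits histone deacetylases, EPZ004777, which inhibits DOT1L, and a GSK3 inhibitor. LCDM, as background, holds LIF, a GSK3 inhibitor, dimethindene maleate and minocycline. The comparison of TPS with EPS lines is thus a comparison of whole media and cell states, in which the agonist cannot be told apart from the other components. TPS lines were made in the study both by conversion of EPS cells and from embryos at the 2-cell stage, and the sources used here do not give the origin of the sequenced lines. Nothing in them says that the lines of a group arose independently, so p-values measure the spread between these lines.

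RARs and RXRs are ligand-activated transcription factors of the nuclear receptor superfamily. An RAR binds DNA as a heterodimer with an RXR, typically on direct repeats of a short half-site called retinoic acid response elements. Without ligand the pair recruits corepressor complexes with histone deacetylases, and on binding all-trans retinoic acid or a synthetic agonist it exchanges them for coactivators with histone acetyltransferase activity. RXRs also pair with many other nuclear receptors. In pluripotent cells retinoic acid is best known as an inducer of differentiation, of Hox genes and of its own breakdown enzymes.

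Total counts per library lay between 13676051 and 21821707, and between 29877215 and 38466294 per line after technical replicates were summed. Expression is given as CPM, counts per 1000000 of the line's total times its TMM factor, and a gene was called when edgeR's quasi-likelihood test gave an adjusted p-value under 0.05 over 17468 tested genes. Of all tested genes 14.4% were called higher and 7.34% lower in TPS lines, and these shares stand beside the counts of each marker list that follows. All 8 genes on a list of 2-cell markers such as Zscan4c were higher in TPS lines, with summed levels of 263 to 356 CPM against 0.0854 to 0.163 CPM in EPS lines. A list of 8 pluripotency genes summed to 2450 to 2730 CPM in TPS and 4650 to 6100 CPM in EPS lines, and 5 of them were lower in TPS. A list of 16 fibroblast genes, which stand for the feeder cells, had summed levels of 6230, 3470 and 3640 CPM in TPS lines 1 to 3, while those of EPS lines 1 to 3 were 323, 1290 and 1370 CPM. Of these, 11 were called higher in TPS lines, and none of the 16 was at 0 in all lines of a group. Of 8 trophectoderm markers 7 were tested, with 2 called higher in TPS lines (Cdx2 and Gata3), none lower and a median log2 fold change of 3.52. At an unadjusted p-value under 0.05 in edgeR 5 were higher and none lower, and in DESeq2 3 were higher and none lower. Their sum was 26.4, 506 and 86.4 CPM in TPS lines 1 to 3 and 26.0 to 49.6 CPM in EPS lines, and the keratin genes Krt8 (243 CPM) and Krt18 (198 CPM) made up most of it in TPS line 2. Of 8 primitive endoderm markers 4 were called higher (Gata6, Sox17, Pdgfra and Dab2) and 1 lower (Lama1), the latter near the share of all tested genes, with a median log2 fold change of 1.93. Their sum, 106 to 142 CPM in TPS and 138 to 194 CPM in EPS lines, was led in EPS lines by Lama1, at 107 to 176 CPM.

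Rarg, Rarb and Rxra were higher in TPS lines, whereas Rara and Rxrb had lower mean levels there without passing the test. Rarg showed the change with the most counts behind it, a 3.58-fold rise that made it the most abundant of the 6 receptor genes per length. Rarb went from no counts in any EPS library to about 1 CPM in every TPS line. Rxra rose 1.79-fold, and Rxrg was detected at a low level in all TPS lines and in 1 EPS line. In all, 3 of the 6 genes were called, where 21.7% of all tested genes were called in either direction. All 3 were higher in TPS lines, as were 14.4% of all tested genes, and none was lower, as were 7.34% of them. Lines of the groups did not overlap for 5 of the 6 genes, and for 42.7% of all tested genes. None was lower at an unadjusted p-value under 0.05 in edgeR or at an adjusted one in DESeq2 either, while 4 were higher in each of these. The median log2 fold change was 1.34 over the 6 genes and -0.00 over all tested genes. In these bulk samples, more cells that express a gene and more RNA of it per cell cannot be told apart. The summed level of the fibroblast genes was higher in the same TPS lines, where 12 of the 16 genes did not overlap between the groups, and the part of feeder RNA was not tested for any receptor gene.

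**Figure D1:**
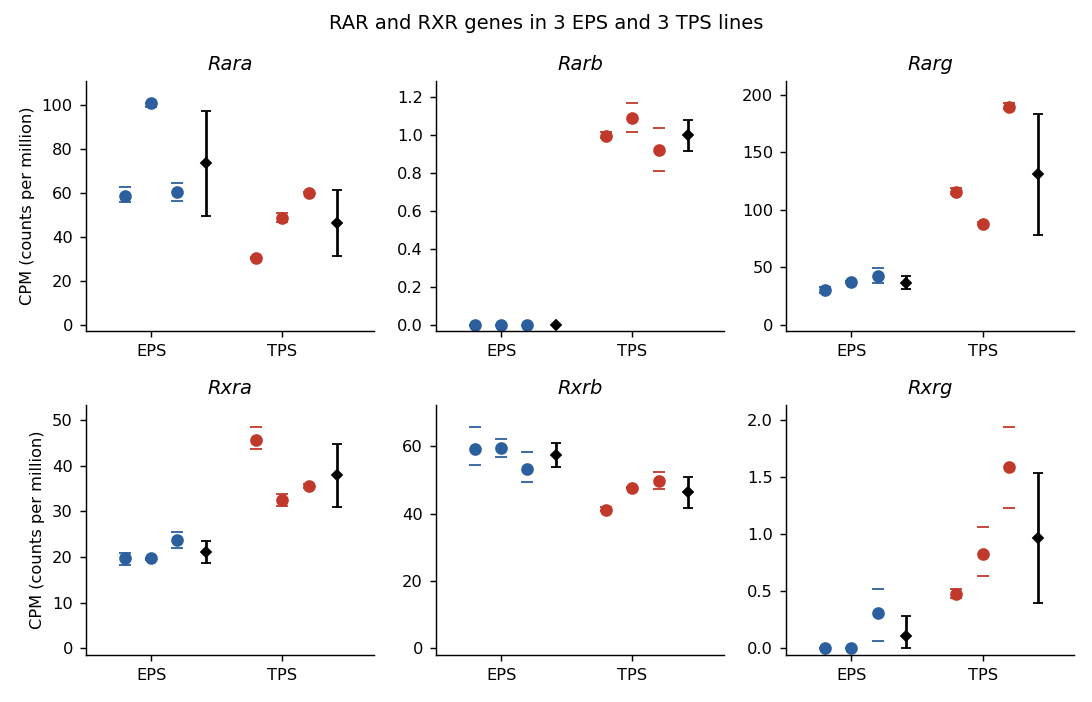
CPM (linear axes, a scale of its own for each gene) of the 6 receptor genes by line. Filled circles are line sums of 3 EPS (blue) and 3 TPS lines (red), ordered 1 to 3 from left to right, short dashes are the technical replicates, and black diamonds with bars are the mean and SD over lines. For Rarb, Rarg, Rxra and Rxrg the TPS circles all lie above the EPS circles, and for Rarb all EPS values are 0.

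Rarg (ENSMUSG00000001288.15, chr15:102234938-102257517, minus strand, GRCm38) encodes RARγ, the receptor that the CPEC agonist is designed for. It had 116, 87.8 and 190 CPM in TPS lines 1 to 3 and 30.4, 37.4 and 42.0 CPM in EPS lines 1 to 3. The lowest TPS line thus lay above the highest EPS line, and TPS line 3 stood above the other two TPS lines. Means were 131 ± 52.6 CPM in TPS and 36.6 ± 5.88 CPM in EPS cells (SD, n = 3 lines each), so that the spread within TPS lines was the wider, with a 2.16-fold range between TPS lines and a 1.38-fold range between EPS lines. The log2 fold change was 1.84 (SE, the standard error of the estimate, 0.287, edgeR adjusted p = 0.00635). It lay between 1.47 and 2.06 when any 1 line was left out, and the call held each time. Of all tested genes, 10.5% had a larger positive change. Among EPS lines, Rarg and the fibroblast sum were both lowest in line 1 and highest in line 3. Among TPS lines, Rarg was highest in line 3 and the fibroblast sum in line 1.

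Rara (ENSMUSG00000037992.16, chr11:98927818-98974942, plus strand) encodes RARα, the RAR that most tissues express. It had 30.3, 48.8 and 60.2 CPM in TPS lines 1 to 3, and 58.8, 101 and 60.7 CPM in EPS lines 1 to 3. The groups overlapped, since TPS line 3 exceeded EPS line 1, and EPS line 2 stood far above the other EPS lines. The log2 fold change of -0.66 did not pass the test (SE 0.302, edgeR adjusted p = 0.154). With any 1 line left out it stayed negative, between -0.90 and -0.38, and was not called.

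Rarb (ENSMUSG00000017491.9, chr14:16430839-16819156, minus strand) encodes RARβ, whose internal promoter carries the classical retinoic acid response element and makes it a textbook direct target of RARs. It had 0.999, 1.09 and 0.922 CPM in TPS lines 1 to 3, which came from 13 to 23 counts in each TPS library, and 0 counts in all 6 EPS libraries. The TPS lines thus lay close together, within a 1.18-fold range. The fibroblast sum was also higher in all TPS lines (3470 to 6230 against 323 to 1370 CPM). With 3 counts taken as the limit that a count of 0 allows per line, 0.0979 CPM in the EPS line where they weigh most, the mean TPS level was at least 10.2-fold higher, a log2 difference of 3.36. The fitted log2 fold change of 8.14 depends on the prior count and is not a bound (edgeR adjusted p = 0.00368), and the call held with any 1 line left out and under all alternatives run. At its bound Rarb still had the largest log2 value of the 6 genes, so that their median of 1.34 could not change. The limit covers counting error only, because without molecular identifiers several reads can stem from 1 molecule.

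The Rarb locus overlaps another gene. On the opposite strand, exons of Top2b, a DNA topoisomerase gene, cover 1793 bp or 34.06% of the Rarb exons, and the sources used here do not say whether counting used strand. Top2b had 58.0, 67.0 and 51.4 CPM in TPS lines 1 to 3 and 61.1, 41.9 and 57.2 CPM in EPS lines 1 to 3, a log2 fold change of 0.14 (SE 0.184, edgeR adjusted p = 0.625). EPS libraries with 636 to 1185 Top2b counts thus had no Rarb count. The antisense gene Gm48162, which overlaps 227 bp of Rarb exons, had no counts in any library. No other receptor gene shared exonic bases with another annotated gene, and none of the 6 had a near-identical gene. That was taken as a gene with a transcript of 95% identity or more along 50% or more of the receptor gene's longest one. Top2b came just under this limit for Rarb, with 100.0% identity over 1433 bp, 46.11% of the longest Rarb transcript.

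The promoter windows of the receptor genes were searched for retinoic acid response elements, since these are the sites that RAR-RXR pairs bind. The motif was a direct repeat of 2 half-sites, each either AGGTCA or one of its close variants, which were AGTTCA, also GGGTCA, and lastly GGTTCA, in the same direction with 5 bases between them (called DR5), on either strand. RefSeq windows of GRCm38.p6, from 250 bases before to 50 after a transcript start, were available for all 6 genes. Only the window of Rarb held a DR5, at chr14:16575427-16575726 on the minus strand, inside the gene body. The element lies from base -53 to -37, where -1 is the base before the start. It is shown because Rarb is the receptor gene with no EPS counts, with the half-sites in capitals.
Rarb window: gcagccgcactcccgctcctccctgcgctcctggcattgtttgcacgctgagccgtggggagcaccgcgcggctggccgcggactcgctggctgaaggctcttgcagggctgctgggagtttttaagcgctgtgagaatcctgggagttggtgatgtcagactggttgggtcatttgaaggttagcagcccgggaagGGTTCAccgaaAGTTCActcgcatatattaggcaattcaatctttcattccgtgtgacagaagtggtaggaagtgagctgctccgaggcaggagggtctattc
Of 32851 such windows in the mouse genome, 32 held a DR5, which is 0.097%. A second was found in a list of 16 known RAR target genes, of which 10 had a window. Cyp26a1 (chr19:37697558-37697857, plus strand) held it on the minus strand from base -32 to -16, and both elements end in the same half-site.
Rarb element: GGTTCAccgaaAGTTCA
Cyp26a1 element: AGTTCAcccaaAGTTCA
Repeats with 1 or 2 bases between the half-sites (DR1 and DR2), which occur in 0.222% and 0.268% of windows, were not found in the windows of the 6 receptor genes. A match is a description of the letters, and its absence says only that these letters are not in these windows.

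Rxra (ENSMUSG00000015846.15, chr2:27676440-27762957, plus strand) encodes RXRα, the main heterodimer partner of RARs in the early embryo. It had 45.6, 32.5 and 35.5 CPM in TPS lines 1 to 3 and 19.8, 19.7 and 23.8 CPM in EPS lines 1 to 3. No TPS line came down to the EPS lines, and TPS line 1 was the highest. The log2 fold change was 0.84 (SE 0.184, edgeR adjusted p = 0.0178). The call was lost when TPS line 1, EPS line 1 or EPS line 2 was left out, with edgeR adjusted p-values of 0.0535, 0.0548 and 0.0605 and log2 fold changes of 0.69, 0.77 and 0.77. TPS line 1 was also the line with the highest fibroblast sum.

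Rxrb (ENSMUSG00000039656.17, chr17:34031812-34038399, plus strand) encodes RXRβ, which is expressed in nearly all cells. It had 41.2, 47.7 and 49.8 CPM in TPS lines 1 to 3 and 59.2, 59.5 and 53.3 CPM in EPS lines 1 to 3. Every TPS line lay below every EPS line, which was true of 19.1% of all tested genes. The log2 fold change of -0.31 did not pass the test (SE 0.136, edgeR adjusted p = 0.141), and with library totals in place of TMM factors it was -0.16. Rxrb had the smallest spread between EPS lines of the receptor genes detected in all 6 lines, a coefficient of variation of 6.07%, and 9.69% between TPS lines.

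Rxrg (ENSMUSG00000015843.10, chr1:167598384-167639623, plus strand) encodes RXRγ, which is known mainly from muscle and brain. It had 0.475, 0.829 and 1.59 CPM in TPS lines 1 to 3, 0 counts in EPS lines 1 and 2, and 0.313 CPM in EPS line 3. In EPS line 3 the technical replicates held 1 and 10 counts, so that a single library accounts for nearly all EPS counts of the gene. TPS libraries held 9 to 31 counts each, and the TPS lines spanned a 3.35-fold range. The log2 fold change of 3.11 did not pass the test (SE 1.13, edgeR adjusted p = 0.0872), although its EPS lines all lay below its TPS lines, which held for 23.6% of all tested genes. Without EPS line 3 the gene had no EPS counts and was called (edgeR adjusted p = 0.0216), and over left-out lines the adjusted p lay between 0.0216 and 0.224. DESeq2 on all 6 lines also called it, with an adjusted p of 0.0412.

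For the 4 abundant receptor genes, technical replicates of a line differed by a factor of 1.00 to 1.34 in CPM. The factor was 1.04 to 1.28 for Rarb in TPS lines, and 1.18 to 8.26 for Rxrg, the highest value being that of EPS line 3.

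To compare the receptor genes with each other, CPM was divided by the length of the union of a gene's exons. In TPS cells the order of mean levels was Rarg with 30.8 ± 12.3 CPM per kb, Rxrb with 11.6 ± 1.13, Rara with 10.6 ± 3.46, Rxra with 6.93 ± 1.26, Rxrg with 0.42 ± 0.248 and Rarb with 0.191 ± 0.0159 (SD, n = 3 lines). Rarg stood above all others in every TPS line. Rxrb and Rara were not separated by their spread over lines, with 10.4 to 12.5 and 6.94 to 13.8 CPM per kb, nor were Rara and Rxra, the latter with 5.95 to 8.35 CPM per kb, nor the 2 low genes, where the lowest line of Rxrg and the highest of Rarb were both at 0.207 CPM per kb. In EPS cells the order was Rara with 16.8 ± 5.47 CPM per kb, Rxrb with 14.4 ± 0.877, Rarg with 8.59 ± 1.38, Rxra with 3.86 ± 0.427 and Rxrg with 0.0454 ± 0.0787, with Rarb at 0. Rara and Rxrb overlapped between lines, since the lowest line of Rara had 13.5 CPM per kb and EPS line 1 had 14.9 CPM per kb of Rxrb. Rarg and Rxra each lay apart from their neighbours in all EPS lines. Among 14876 tested protein-coding genes, Rarg exceeded 66.2% per length in EPS and 89.6% in TPS cells, and Rxra 49.5% and 61.6%. Rara exceeded 79.4% in EPS and 71.5% in TPS cells, and Rxrb 76.8% and 73.4%.

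**Figure D2:**
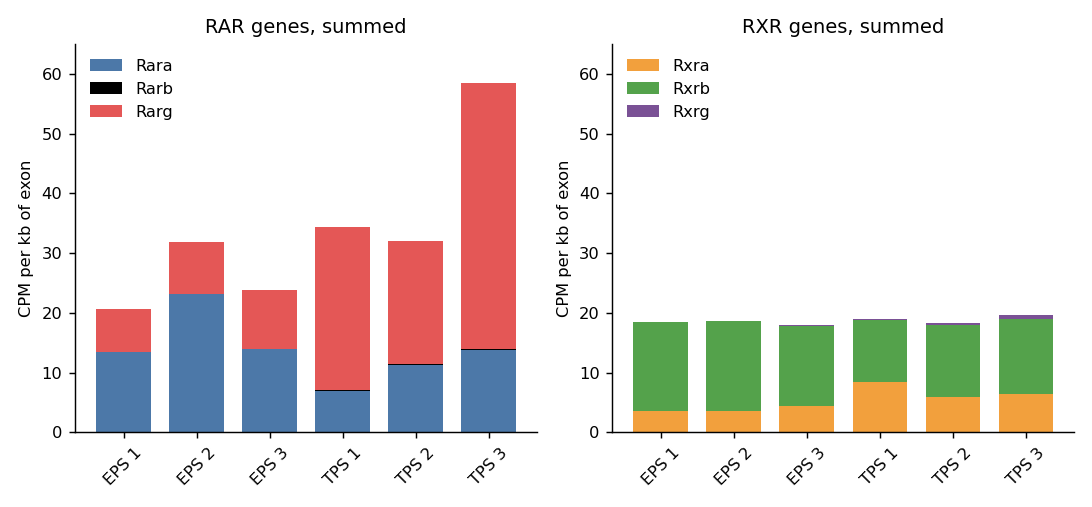
CPM per kb of exon (linear axis from 0) of the RAR genes (left) and the RXR genes (right), stacked for each of 3 EPS and 3 TPS lines. Rarg makes up most of the RAR column in every TPS line and Rara in every EPS line, while the RXR columns stay between 17.9 and 19.7 CPM per kb.

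The makeup of the RAR transcripts differed between the groups in every line. Rarg made up 79.2%, 64.4% and 76.1% of the RAR sum per kb in TPS lines 1 to 3, and 34.6%, 27.5% and 41.5% in EPS lines 1 to 3. Rara made up the larger share in each EPS line, at 65.4%, 72.5% and 58.5%, and 20.2%, 34.9% and 23.6% in TPS lines 1 to 3. The shares did not overlap between the groups. The ratio of Rarg to Rara per kb was 3.00 ± 1.06 in TPS and 0.54 ± 0.166 in EPS cells (SD, n = 3 lines each). Rarb was no more than 0.646% of the RAR sum in any line. The RAR sum itself was 34.3, 32.0 and 58.5 CPM per kb in TPS lines 1 to 3 and 20.6, 31.9 and 23.8 CPM per kb in EPS lines 1 to 3, so that TPS line 2 and EPS line 2 were nearly level.

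The RXR sum lay at 18.9, 18.3 and 19.7 CPM per kb in TPS lines 1 to 3 and at 18.5, 18.6 and 17.9 CPM per kb in EPS lines 1 to 3, and the groups overlapped. Within this sum, Rxra made up 44.1%, 32.5% and 32.9% in TPS lines and 19.5%, 19.4% and 24.3% in EPS lines, with no overlap. Rxrb was the larger part in every line, at 54.8% to 65.5% in TPS and 74.9% to 80.6% in EPS lines. There was less RXR than RAR RNA per kb in every line, with a ratio of 0.487 ± 0.13 in TPS and 0.745 ± 0.159 in EPS cells (SD, n = 3 lines each). The EPS line with the lowest ratio, EPS line 2 at 0.582, was close to TPS lines 1 and 2 at 0.551 and 0.573. Sums and shares are given as descriptions, without a test.

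The other genes of retinoid signalling were taken from 6 lists with 64 genes, of which 54 were tested. The lists were chosen with earlier results of these data known, so their counts and medians are descriptions and no independent support. Of the tested genes 19 were called higher and 4 lower in TPS lines, where 14.4% of all tested genes were higher and 7.34% lower, and their median log2 fold change was 0.35. The 4 lower genes are a share near that of all tested genes. Among RAR target genes 13 of 15 tested genes were higher and none was lower (14 higher and none lower at an unadjusted p-value under 0.05 in edgeR, and likewise in DESeq2). The median log2 fold change of these target genes was 3.54. Of 8 coactivators and 9 corepressors, which act on the receptors' DNA-bound complexes, 1 was called, where 21.7% of all tested genes were called in either direction. The difference from that share was not tested.

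**Figure D3:**
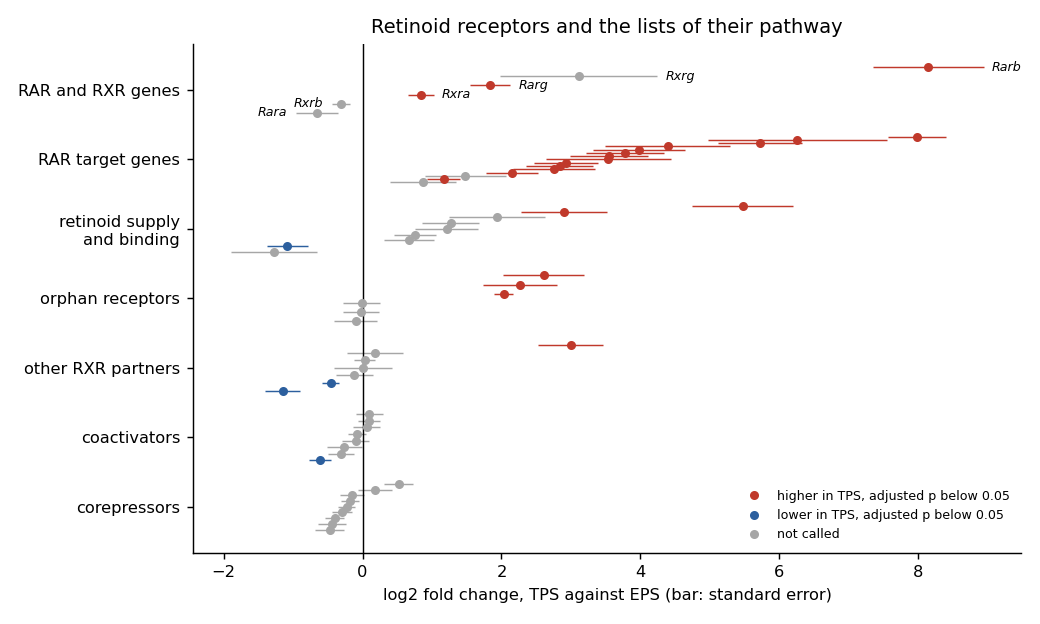
Log2 fold change between TPS and EPS lines (linear axis, positive where TPS is higher) for each tested gene of the receptor set and of the 6 pathway lists. Points are edgeR estimates, bars are standard errors, and colours mark genes called higher (red), called lower (blue) or not called (grey). RAR target genes lie between 0.87 and 7.98, all to the right of 0, and corepressors between -0.47 and 0.52; the value of Rarb is a fitted one and no bound.

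Stra8, a retinoic acid-induced gene that starts meiosis in germ cells, had the largest change of the target list. It had 75.4, 54.4 and 56.3 CPM in TPS lines 1 to 3 and 0.359, 0.294 and 0.0854 CPM in EPS lines 1 to 3, a log2 fold change of 7.98 (SE 0.422, edgeR adjusted p = 0.000152). All TPS lines were high and all EPS lines near 0. Hoxb1, a homeobox gene of the hindbrain with response elements nearby, had 1.52, 13.0 and 18.2 CPM in TPS lines 1 to 3, and 0, 0.383 and 0.0285 CPM in EPS lines 1 to 3. TPS line 1 was far below the other two TPS lines, and the log2 fold change of 6.26 had a standard error of 1.29 (edgeR adjusted p = 0.0152). It was 5.67 without TPS line 3. EPS lines 1 to 3 held 0, 13 and 1 counts of the gene, so that the fitted value without EPS line 2, 9.17, rests on 1 EPS count and depends on the prior count. Stra6, the cell surface receptor for the retinol carrier, had 3.92, 7.85 and 5.94 CPM in TPS lines 1 to 3, against 0.0326, 0.0883 and 0.199 CPM in EPS lines 1 to 3 (log2 fold change 5.72, SE 0.609, edgeR adjusted p = 0.00222). All TPS lines were again above all EPS lines, and without EPS line 3 the value was 6.49.

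Cyp26a1, the enzyme that breaks down retinoic acid and the gene with the second DR5, had 0.65, 4.59 and 1.87 CPM in TPS lines 1 to 3 and 0.0326, 0.206 and 0.0854 CPM in EPS lines 1 to 3. It was low in all lines and uneven among TPS lines, with TPS line 2 the highest. Its log2 fold change was 4.39 (SE 0.905, edgeR adjusted p = 0.015), and the call was lost without EPS line 1 (edgeR adjusted p = 0.0502). Without TPS line 2 the value was 3.48, and without EPS line 2 it was 5.20. The target genes that were tested and not called were Tgm2, a transglutaminase, with a log2 fold change of 1.48 (edgeR adjusted p = 0.111; called in 5 of the 10 other settings and, at 2.32, without EPS line 1), and Crabp2, which delivers retinoic acid to RARs, with 0.87 (edgeR adjusted p = 0.229). Hoxd4 was too low to be tested. Among the other called target genes, Cyp26b1, Dhrs3, Hoxb4, Cdx1, Foxa1 and Meis2 had log2 fold changes from 2.15 for Dhrs3 to 3.98 for Foxa1. These 6 were named after their values were seen. None of them had overlapping groups, and levels were higher in TPS lines, a pattern that 23.6% of all tested genes showed. TPS line 2 was the highest TPS line for Cyp26a1, Stra6, Crabp2, Foxa1, Meis2 and Tgm2. It also had the highest trophectoderm sum (506 CPM) and the lowest primitive endoderm sum of the TPS lines. Of the trophectoderm markers, Gata3, Krt7, Krt8, Krt18 and Hand1 were highest there, Cdx2 and Eomes in TPS line 3 and Elf5 in TPS line 1. Of the primitive endoderm markers, Gata4, Gata6, Sox17, Foxa2 and Lama1 were highest in TPS line 2, and Sox7, Pdgfra and Dab2 were lowest there. Stra8, Cyp26b1 and Dhrs3 were highest in TPS line 1, and Hoxb1, Hoxb4 and Cdx1 in TPS line 3. The summed level of the fibroblast genes was higher in all TPS lines. The part of fibroblast, trophectoderm and primitive endoderm RNA in the changes of the target genes was not tested.

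**Figure D4:**
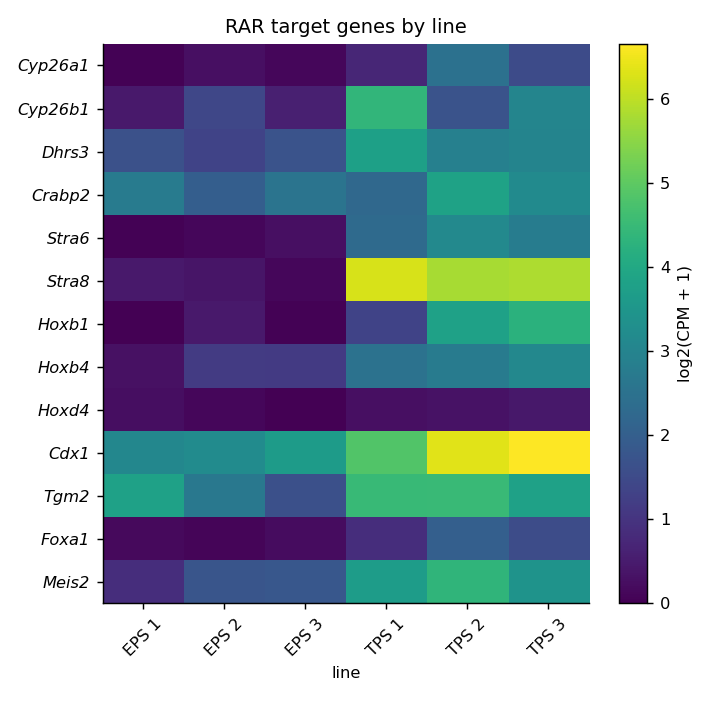
Expression of 13 of the RAR target genes in each of 3 EPS and 3 TPS lines as log2(CPM + 1), with brighter colours for higher levels. Stra8 goes from near 0 in EPS lines to 54.4 CPM or more in TPS lines, and Hoxb1 and Cyp26a1 are weaker in TPS line 1 than in TPS lines 2 and 3.

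Of 9 tested genes of retinoid supply and binding 2 were called higher and 1 lower, next to 14.4% and 7.34% of all tested genes. At an unadjusted p-value under 0.05 in edgeR 6 were higher and 1 lower, and in DESeq2 5 were higher and 1 lower. Aldh1a1, which oxidizes retinal to retinoic acid, had 5.70, 1.27 and 4.10 CPM in TPS lines 1 to 3 and 0.0653, 0.0589 and 0.114 CPM in EPS lines 1 to 3 (log2 fold change 5.47, edgeR adjusted p = 0.00376). Every TPS line was above the EPS lines, and TPS line 2 was the lowest among them. The fibroblast sum was 6230, 3470 and 3640 CPM in these TPS lines and 323 to 1370 CPM in EPS lines, and its part in the changes of the supply and binding genes was not tested. Rbp4, the secreted retinol carrier, had 1.42, 4.48 and 1.68 CPM in TPS lines 1 to 3 and 0.163, 0.471 and 0.37 CPM in EPS lines 1 to 3, and rose with a log2 fold change of 2.90 (edgeR adjusted p = 0.0171). TPS line 2 was the highest, and without it the value was 2.19, while the call was lost without EPS line 1 (edgeR adjusted p = 0.0514). In TPS line 2 the trophectoderm sum (506 CPM) was also highest, and the primitive endoderm sum was the lowest of the TPS lines. Its primitive endoderm markers were split, with Gata4, Gata6, Sox17, Foxa2 and Lama1 highest and Sox7, Pdgfra and Dab2 lowest among TPS lines. The part of trophectoderm and primitive endoderm RNA in the Rbp4 difference was not tested. Rdh11, a retinal reductase, fell by 1.08 on the log2 scale (edgeR adjusted p = 0.039), a call lost without TPS line 1, TPS line 3, EPS line 1 or EPS line 2, with library totals and with second technical replicates alone. Crabp1, a cytoplasmic retinoic acid binding protein and the most abundant gene of this list, had 315, 107 and 273 CPM in TPS lines 1 to 3 and 62.4, 100 and 125 CPM in EPS lines 1 to 3. TPS line 2 lay within the EPS range, and the log2 fold change of 1.27 was not called (edgeR adjusted p = 0.062). It was called without TPS line 2 (edgeR adjusted p = 0.0156) and in 5 of the 10 other settings, DESeq2 among them (adjusted p = 0.0158). Fabp5, which binds retinoic acid and fatty acids, had a log2 fold change of 1.21 and was not called either (edgeR adjusted p = 0.094), although 3 of the 10 other settings called it, DESeq2 among them. TPS line 1 had 172 CPM, against 56.5 and 52.1 CPM in the other two TPS lines and 32.8 to 46.3 CPM in EPS lines, and without it the log2 fold change was 0.42.

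Orphan receptors that can occupy retinoic acid response elements had 3 of 6 genes higher and none lower, next to 14.4% and 7.34% of all tested genes, with none lower at an unadjusted p-value under 0.05 in edgeR or in DESeq2. Nr6a1 (GCNF), a repressor of Pou5f1 that retinoic acid induces, had 190, 182 and 218 CPM in TPS lines 1 to 3 and 46.8, 45.5 and 52.6 CPM in EPS lines 1 to 3. Both groups were tight, and the log2 fold change was 2.03 (SE 0.135, edgeR adjusted p = 0.000487). Nr2f1 and Nr2f2 (COUP-TFI and COUP-TFII) rose with log2 fold changes of 2.61 and 2.27 (edgeR adjusted p = 0.0196 and 0.0231) from low levels, no more than 3.70 CPM in any line, and lost their calls without EPS line 1 or 3 (Nr2f1) and without TPS line 1, TPS line 3 or EPS line 2 (Nr2f2). Nr2f1 also lost its call with second technical replicates alone, and without TPS line 2 its value was 2.00. Its level was highest in TPS line 2, at 3.11 CPM, against 1.20 and 1.21 CPM in TPS lines 1 and 3. The trophectoderm sum (506 CPM) was also highest in TPS line 2, and the primitive endoderm sum was the lowest of the TPS lines. Among TPS lines, line 2 had the most Gata4, Gata6, Sox17, Foxa2 and Lama1 RNA and the least Sox7, Pdgfra and Dab2 RNA. The part of trophectoderm and primitive endoderm RNA in the Nr2f1 difference was not tested. The fibroblast sum was 3470 to 6230 CPM in TPS and 323 to 1370 CPM in EPS lines, and its part in the changes of these receptors was not tested. Nr2c2 and Nr2f6, the more abundant of the genes not called, had log2 fold changes of -0.10 and -0.01 (edgeR adjusted p = 0.843 and 0.989).

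Of the 13 other nuclear receptors that pair with RXRs, 7 were expressed enough to be tested, and 1 was called higher and 2 lower, next to 14.4% and 7.34% of all tested genes. Vdr, the vitamin D receptor, had 2.30, 2.33 and 2.61 CPM in TPS lines 1 to 3 and 0.229, 0.177 and 0.484 CPM in EPS lines 1 to 3 (log2 fold change 3.00, edgeR adjusted p = 0.00632). The TPS lines were nearly equal and far above all EPS lines. The summed level of the fibroblast genes was higher in the same lines (3470 to 6230 against 323 to 1370 CPM), and its part in the Vdr difference was not tested. Nr4a1 (NUR77) fell by 1.15 on the log2 scale (edgeR adjusted p = 0.0185), a call lost without TPS line 1 or TPS line 3 and with first technical replicates alone. Nr1h2 (LXRβ) fell by 0.46 (edgeR adjusted p = 0.0392) and lost its call in 6 of the 10 other settings and with any of the 6 lines left out. These settings were DESeq2, library totals, upper quartile factors, every gene tested, second technical replicates alone and the line number as a block. Ppard and Thra, the most abundant of those not called, had log2 fold changes of 0.03 and -0.12 (edgeR adjusted p = 0.898 and 0.78).

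Of 8 coactivators only Kat2b (PCAF), a histone acetyltransferase, passed the test, falling by 0.61 on the log2 scale (edgeR adjusted p = 0.0343), and its call was lost when any line but EPS line 1 was left out, with library totals (-0.47, edgeR adjusted p = 0.099), with second technical replicates alone (edgeR adjusted p = 0.0517) and with the line number as a block (edgeR adjusted p = 0.0787). No coactivator was higher, at an unadjusted p-value under 0.05 in edgeR or in DESeq2 either. Ncoa3 and Carm1, the most abundant of those not called, had log2 fold changes of 0.10 and -0.31 (edgeR adjusted p = 0.73 and 0.263). None of 9 corepressors was called in edgeR or DESeq2 on all 6 lines, and 1 was higher and 1 lower at an unadjusted p-value under 0.05 in edgeR. Ncor1, the main corepressor of unliganded RARs, had 162, 160 and 171 CPM in TPS lines 1 to 3 and 156, 249 and 277 CPM in EPS lines 1 to 3, where EPS line 1 was level with TPS lines (log2 fold change -0.47, edgeR adjusted p = 0.149). Without EPS line 1 it was called lower, at -0.71 (edgeR adjusted p = 0.0194). Sin3a, a scaffold of histone deacetylase complexes, had a log2 fold change of -0.18 (edgeR adjusted p = 0.351).

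The genes whose course over the 6 lines was most like that of each receptor gene were found as those with the smallest root-mean-square difference between log2(CPM + 1) profiles, each centred on its mean. For Rarg these were Pear1, Gm6509 and Apol9a, with differences of 0.0652, 0.147 and 0.147. For Rara they were Shank1, Bcl6b and Gsc (0.108, 0.123 and 0.174), and for Rarb Vgll1, Eml1 and Prokr1 (0.0436, 0.0503 and 0.0519). Rxra was closest to Slc6a12, Dctd and Mtx3 (0.0618, 0.0678 and 0.0681), Rxrb to Atpaf1, Actr2 and P2rx2 (0.0368, 0.0378 and 0.0399), and Rxrg to Slc25a10, Odc1 and Tbx4 (0.0974, 0.118 and 0.12). No receptor gene was among the nearest 3 of another. Adding 1 CPM shrinks the differences of low genes, so that nearness on this scale does not mean a similar fold change. Log2 fold changes were 1.30 for Eml1 near Rarb, 9.52 for Gm6509 near Rarg and 2.89 for Slc6a12 near Rxra. Dctd, also near Rxra, had 0.87. The measure includes the difference between the groups, and all values come from the same 6 lines.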

How the data were processed

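The authors enriched polyadenylated RNA, sequenced 2 × 100-bp paired ends, mapped reads to GRCm38.p6 with STAR 2.7.3a (fastp 0.19.7 is named in the submitters' processing notes) and deposited raw counts per gene. The counting tool, annotation release, use of strand and handling of multimapping reads are not given in the sources used here, so overlapping genes could share reads. Here 55141 of 55401 gene IDs matched GENCODE M21 without version. Technical replicates were summed per line. TPS and EPS lines were compared with edgeR 4.0.16 (R 4.3.3; TMM, filterByExpr with a minimum of 10 counts, quasi-likelihood test, Benjamini-Hochberg, threshold 0.05), and the standard error is the log2 fold change divided by the square root of F. Counts were also simulated with a common dispersion of 0.106, and 97 genes with 2-fold and 95 with 4-fold changes among 17172 tested genes. Of these, 81.1% of 4-fold and 6.19% of 2-fold changes were called. In the real data 21.7% of tested genes were called and dispersions differ between genes, so these shares do not give the sensitivity there. Members and lists were chosen with earlier results of these data known. Named were all members, up to 4 called genes with the largest change and 2 abundant genes not called per list, the 3 nearest profiles, and genes overlapping a member. Target genes named with a range only were added after their values were seen. The values of 3 target genes are not reported here. DESeq2 1.42.0, other factors, filters, replicate units, a replicate block and left-out lines were alternatives, with the longest transcript for lengths. Technical replicates differed by more than sampling noise (chi-square per degree of freedom 2.68 to 24.3).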

Additional observations from a re-analysis of the deposited data

How the results depend on the processing

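The calls of Rarg and Rarb held in each of the 10 other settings and with any 1 of the 6 lines left out, and no receptor gene changed sign in any setting run. Rxra kept its call in the 10 other settings. Over left-out lines its log2 fold change lay between 0.69 and 0.94, and 3 of the 6 fits lost the call. Rxrg lay between 2.52 and 3.44 over 5 of the left-out lines, while the 8.07 fitted without EPS line 3 is against no EPS counts, depends on the prior count and is not a bound. It passed the threshold in DESeq2 (3.16) and with every gene with at least 1 count tested (3.09), while 3 of the 10 settings did not test it. With the 12 libraries as separate samples, which counts technical replicates as lines, Rara (-0.65) and Rxrb (-0.31) were called lower, 4067 genes were higher and 3610 lower over all tested genes, and 9 other retinoid pathway genes were lower. Library totals without composition factors moved the median of all genes to 0.14, left 745 genes and 1 pathway gene called lower and put 80.0% of calls on the higher side, against 66.2% with TMM factors. The 12 libraries as separate samples put 53.0% there. The second technical replicates alone left 1 pathway gene called lower. Over left-out lines, between 1617 and 2234 genes were called higher and between 493 and 1047 lower, against 2509 and 1282 in the fit on all lines, with 16 to 20 pathway genes higher and 0 to 3 lower. These fits have fewer lines. Rarb at about 1 CPM and Rxrg at 19 counts in TPS line 1 are limited by depth.

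Correlations of deviations between TPS and EPS lines of the same number were 0.024, -0.116 and 0.0423. Those between lines of unlike number lay between -0.244 and 0.231. With 3 lines per group these values cannot decide whether equal numbers mark related lines. With the line number as a replicate block 1714 genes were called higher and 721 lower over all genes, and 19 pathway genes higher and 2 lower, and no call among the receptor genes changed (adjusted p = 0.0134 for Rarg, 0.03 for Rarb and 0.0473 for Rxra). Small differences that were not called turned sign: Nr2c2 (0.03) and Thra (0.04) with library totals, and Nr2f6 with library totals (0.14), upper quartile factors (0.05) and second technical replicates (0.07). Over left-out lines Ncoa3 ranged from -0.07 to 0.23, Nr2c2 from -0.42 to 0.16, Nr2f6 from -0.21 to 0.21, Ppard from -0.10 to 0.09, Thra from -0.35 to 0.10 and Top2b from -0.03 to 0.22. With the longest transcript in place of the exon union, Rxra made up 16.5% of the RXR sum in EPS lines, and Rxrb 68.2% in TPS and 83.3% in EPS lines. The cause of these changes was not tested.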
